A study of Mus with 35 samples.

Results

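The transcripts described here encode 40 proteins of the presynaptic active zone and of synaptic vesicle release. They were chosen by gene symbol, and all 40 had 1 row each in a deposited table of 55573 rows by 35 mouse brain libraries. The libraries form 12 groups. Each group has 3 libraries, except the P209L mice given the Hnrnph2 ASO at 3 weeks, which have 2. All animals are male C57BL/6J mice, either hemizygous for Hnrnph2 P209L or Hnrnph2 R206W, substitutions in an X-linked RNA-binding protein, or WT littermates. Every animal received 30 µg of an antisense oligonucleotide (ASO) into a brain ventricle between day 2 and day 4 after birth, directed against Hnrnph2 or a control, so there is no uninjected group. The mutants and WT were given either ASO in a P209L cohort collected at 8 weeks, a P209L cohort collected at 3 weeks and an R206W cohort collected at 3 weeks. Each title carries a different name that may be an animal's, but the labels do not state that every library is a separate animal; if some are not, the p-values measure a spread that is in part technical.

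At a presynaptic terminal, vesicles filled with transmitter dock at the active zone, a protein scaffold opposite the receptors of the next cell. SNARE proteins on the vesicle and the plasma membrane then zip together, and calcium bound by synaptotagmins triggers fusion. In rodent brain the terminals keep adding vesicles and active zone protein after birth. Because the libraries hold bulk tissue, fewer cells of a type and less RNA per cell cannot be told apart in any value given here.

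Levels are in TPM, a measure per unit of transcript length scaled to the same total in every library; read totals are not part of it, and sequencing depth is therefore unknown. Between 16235 and 16649 rows reached 1 TPM in a library. Hnrnph2 itself was 75.9% to 91.3% lower in the Hnrnph2 ASO groups than in the matching control ASO groups, with an exact permutation p of 0.1 in each of the 6 pairs, two-sided and the smallest that these group sizes allow. The labels name whole brain in one place and dissected cortex in another. The summed level of 7 cerebellar granule cell markers lay between 335.2 and 998.5 TPM in the 35 libraries, so RNA of these markers was present in each. Their sum was highest in WT mice of the R206W cohort. The summed level of 80 ribosomal protein genes also differed between libraries, from 26860 TPM in a WT control ASO library at 3 weeks in the P209L cohort to 37820 TPM in replicate 2 of the WT control ASO group at 8 weeks. That library also stood lowest for the presynaptic genes: its members lay, at the median, 0.34 below their mean over all libraries on the log2 scale.

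**Figure D1:**
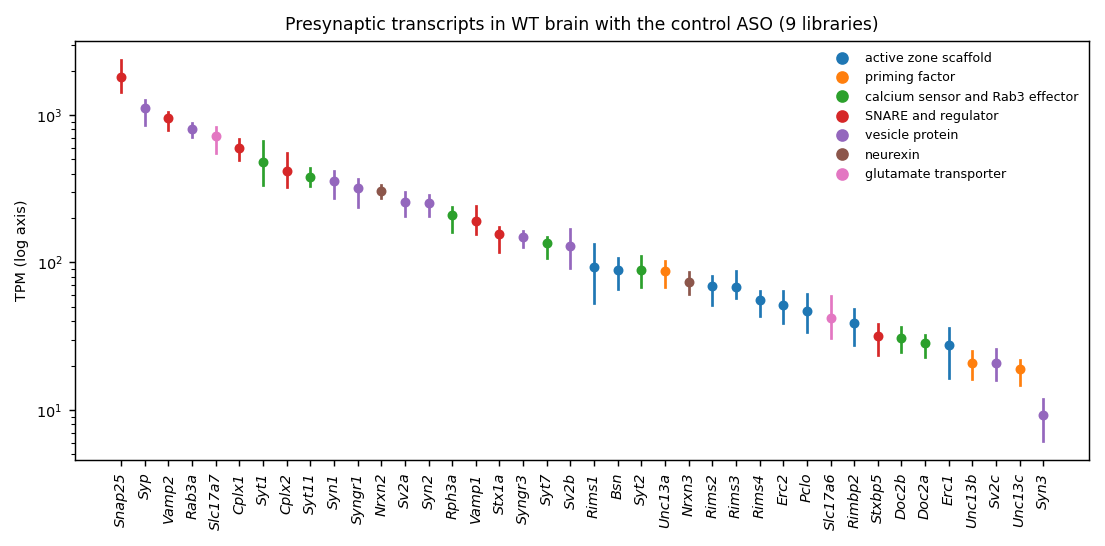
Mean level of the 40 presynaptic transcripts in WT brain with the control ASO (TPM, log axis), ordered by mean; lines span the lowest to the highest of 9 libraries and colours mark the protein's role. Levels run from Snap25 at 1814 TPM to Syn3 at 9.22 TPM, and the active zone scaffolds and priming factors all sit below 100 TPM.

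In WT brain with the control ASO, over 9 libraries of the 3 cohorts, 20 members averaged at least 100 TPM, 14 lay between 30 and 100 TPM and 6 were under 30 TPM. Together the 40 made up 0.908% to 1.19% of all TPM in a library. They lie on 18 chromosomes, and 2 of them, Syp and Syn1, are on the X chromosome, as Hnrnph2 is. SNARE and vesicle proteins headed the order, while scaffolds, which are large proteins present in few copies at each release site, stood low. Snap25, the plasma membrane SNARE with a pair of helices (mm10, 2:136713439 to 136782428), averaged 1814 ± 294 TPM (SD, n = 9). The vesicle membrane protein Syp followed at 1115 ± 142 TPM, and its libraries did not overlap with those of Snap25. The vesicle SNARE Vamp2 had 948 ± 87.7 TPM and the vesicle GTPase Rab3a 799 ± 54.9 TPM, and the ranges of Syp, Vamp2 and Rab3a overlapped each other.

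Several pairs of paralogs were far apart. Vamp1, the vesicle SNARE that prevails in spinal cord and brainstem, had 191 ± 29.1 TPM; its ratio to Vamp2 lay between 0.156 and 0.310 over all libraries. The fast calcium sensor Syt1 had 480 ± 110 TPM, and Syt2, the sensor of fast-spiking and hindbrain neurons, had 88.6 ± 14.8 TPM. The transporter that loads glutamate in cortical and cerebellar granule neurons, Slc17a7, had 721 ± 106 TPM, against 42.1 ± 9.10 TPM for Slc17a6, its counterpart in thalamus and brainstem. The complexins, which clamp and assist the SNARE complex, were closer to each other, with 593 ± 55.6 TPM for Cplx1 and 417 ± 62.1 TPM for Cplx2.

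Among the scaffolds, Rims1 had 93.3 ± 28.3 TPM, Bsn 89.5 ± 14.4 TPM, Rims2 68.9 ± 9.07 TPM, Rims3 68.1 ± 9.43 TPM and Rims4 55.4 ± 9.06 TPM. RIM proteins tether calcium channels and prime vesicles, and Rims3 and Rims4 are the short forms that hold little beyond the last C2 domain. Erc2 had 51.5 ± 10.1 TPM, Pclo 47.0 ± 8.63 TPM and Rimbp2 39.1 ± 7.16 TPM, with ranges that overlapped over these libraries, and Erc1 was lowest of the scaffolds with 27.4 ± 6.99 TPM. The priming factor Unc13a had 87.4 ± 11.2 TPM, and Unc13b and Unc13c, which prime vesicles in narrower sets of neurons, had 20.9 ± 2.84 and 18.9 ± 2.43 TPM. The lowest member was Syn3, a synapsin that coats vesicles early in development.

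**Figure D2:**
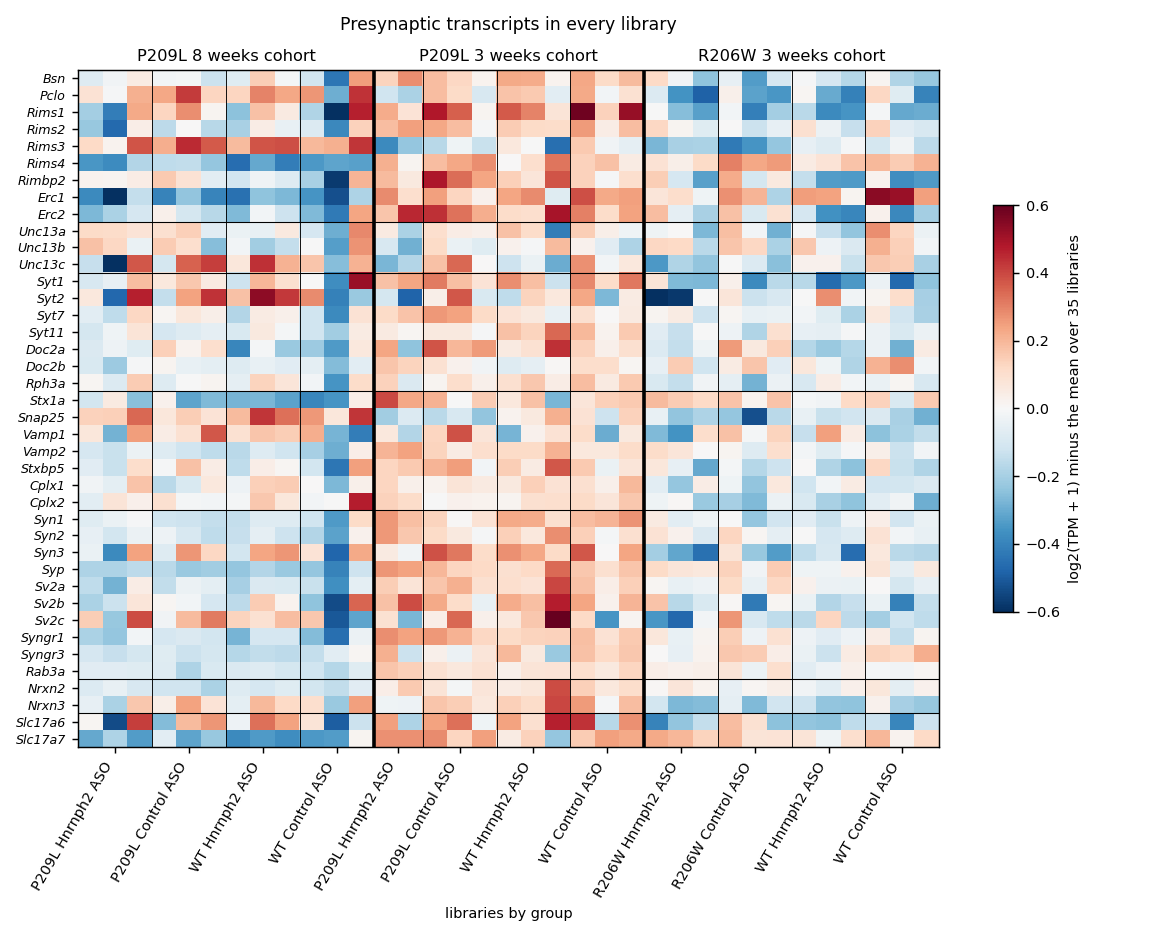
Level of each member in every library, as log2(TPM + 1) minus its mean over 35 libraries, in the order of roles used in the text; colours stop at 0.6 in either direction. The median of the 40 in a library ran from -0.34 to 0.074 at 8 weeks, from 0.038 to 0.17 at 3 weeks in the P209L cohort and from -0.10 to 0.061 in the R206W cohort.

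Many presynaptic transcripts differed between the 8-week and the 3-week libraries of the P209L cohorts. Each age was a separate cohort there, so age and cohort cannot be told apart. A fall or rise below is a difference between these cohorts. In the P209L cohorts, averaged over both genotypes and both ASOs, 23 of the 40 members were lower at 8 weeks than at 3 weeks and 2 were higher (limma on log2(TPM + 1), Benjamini-Hochberg adjusted p under 0.05 over all 16556 genes tested). Of all genes tested, 26.6% were lower and 15.5% were higher. The median log2 fold change of the 40 was -0.16, against -0.035 over all genes tested. The ribosomal protein sum was 28520 to 37820 TPM at 8 weeks, against 26860 to 31060 TPM at 3 weeks in these cohorts. With the level of these genes as a covariate, chosen after seeing the data, 15 members were lower and 5 higher, and the median of the 40 was -0.042. The share of all genes called with this covariate is not reported here. Vesicle proteins and active zone scaffolds made up most of the fall: 8 of 10 vesicle proteins and 7 of 9 scaffolds fell. Of the rest, 4 of 7 synaptotagmins, Doc2 proteins and Rab3 effectors, 2 of 7 SNAREs and regulators and 1 of 2 neurexins fell. For glutamate transporters it was 1 of 2 and for priming factors 0 of 3. For 7 members (Rims4, Erc1, Vamp2, Syp, Syngr1, Rab3a and Nrxn2) the highest of the 12 libraries at 8 weeks was below the lowest of the 11 libraries at 3 weeks, as for 3.55% of all genes tested, and for 0 members the 8-week libraries all lay above, as for 0.924% of all genes.

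The largest fall was that of Erc1 (6:119570796 to 119848184), a scaffold that also acts in secretion outside the synapse. Its level at 8 weeks ran from 14.0 through a median of 18.6 to 21.9 TPM, against 23.1, 28.8 and 32.0 TPM at 3 weeks, a log2 fold change of -0.55 (SE 0.068, adjusted p = 2.92e-07). The libraries of the 2 ages did not overlap. Rims4 (2:163859756 to 163918973) had 39.7, 43.8 and 49.6 TPM at 8 weeks and 55.0, 62.2 and 68.8 TPM at 3 weeks, a change of -0.45 (SE 0.034, adjusted p = 5.51e-11). Of the 40 it had the smallest p. Rims3, the other short RIM, went the opposite way: it had 65.3, 79.0 and 88.1 TPM at 8 weeks and 46.7, 61.9 and 71.7 TPM at 3 weeks, a change of 0.41 (SE 0.054, adjusted p = 8.11e-07). The median of Rims3 in TPM was above that of Rims4 at 8 weeks and close to it at 3 weeks.

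The other scaffolds that fell had smaller changes than Erc1 and Rims4, and differences between members were not tested. Erc2, an ERC protein found in neurons and at the active zone, changed by -0.41 (SE 0.072), Rims1 by -0.31 (SE 0.10), Rims2 by -0.29 (SE 0.057), Rimbp2, which links RIMs to calcium channels, by -0.23 (SE 0.071), and Bsn by -0.20 (SE 0.059), with adjusted p between 4.94e-05 and 0.0174. Rims1 varied most: at 8 weeks its levels ran from 53.2 through 90.4 to 122 TPM, against 89.0, 108 and 132 TPM at 3 weeks, so the ages overlapped widely. With the ribosomal covariate Rims1 turned to 0.044 and Bsn, Rimbp2 and Rims2 no longer passed the test. Pclo, the partner of Bsn, did not pass the test, with 0.15 (SE 0.079, adjusted p = 0.121), nor did the 3 Unc13 genes, with values from 0.030 for Unc13a to 0.12 for Unc13c.

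Among vesicle proteins, Syp had 854, 984 and 1035 TPM at 8 weeks (lowest, median and highest) and 1206, 1262 and 1427 TPM at 3 weeks. Its log2 fold change was -0.39 (SE 0.031, adjusted p = 1.49e-10), and no library of one age reached those of the other. Syngr1, a relative of Syp, had 238, 302 and 321 TPM at 8 weeks and 345, 363 and 394 TPM at 3 weeks, a change of -0.35 (SE 0.038). Sv2a, the vesicle glycoprotein to which the drug levetiracetam binds, changed by -0.28 (SE 0.042), its relative Sv2b by -0.27 (SE 0.079), Syn1 by -0.27 (SE 0.038), Syn2 by -0.23 (SE 0.037), Rab3a by -0.20 (SE 0.020) and Syngr3 by -0.17 (SE 0.039). The 2 vesicle proteins that did not pass the test were the lowest in level, Syn3 with -0.14 (SE 0.083) and Sv2c with -0.028 (SE 0.094).

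The SNAREs parted. Snap25 had 1838, 1973 and 2365 TPM at 8 weeks and 1489, 1657 and 2034 TPM at 3 weeks, a change of 0.26 (SE 0.049, adjusted p = 9.00e-05). Its membrane partner Stx1a (5:135023482 to 135051100) had 118, 129 and 161 TPM at 8 weeks and 129, 173 and 205 TPM at 3 weeks, a change of -0.34 (SE 0.057, adjusted p = 2.35e-05). Both ranges overlapped between ages. Vamp2 had 791, 892 and 996 TPM at 8 weeks and 1001, 1048 and 1144 TPM at 3 weeks, a change of -0.25 (SE 0.032, adjusted p = 3.68e-07), while Vamp1 gave 0.029 (SE 0.079, adjusted p = 0.792) and did not pass the test. Cplx1, with -0.089 (SE 0.044), and Cplx2, with -0.017 (SE 0.047), did not pass the test, and neither did Stxbp5, a soluble SNARE-binding protein that holds back fusion, with -0.16 (SE 0.065, adjusted p = 0.0520).

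Of the synaptotagmins and Doc2 proteins, neither Syt1 nor Syt2 passed the test: Syt1 had -0.13 (SE 0.081, adjusted p = 0.190) and Syt2 had 0.16 (SE 0.11, adjusted p = 0.244). The 4 that fell were Doc2a, a high-affinity sensor of spontaneous and asynchronous release, by -0.23 (SE 0.059), Syt11 by -0.15 (SE 0.035), Syt7, the slow sensor, by -0.15 (SE 0.045), and Doc2b by -0.13 (SE 0.041). Slc17a7 had 536, 556 and 705 TPM at 8 weeks and 595, 817 and 849 TPM at 3 weeks, a change of -0.44 (SE 0.044, adjusted p = 9.53e-09). Slc17a6 had -0.16 (SE 0.10, adjusted p = 0.215). Nrxn2, an adhesion receptor of the terminal, fell by 0.21 on the log2 scale (SE 0.031), and its relative Nrxn3 had -0.060 (SE 0.055, adjusted p = 0.403).

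Within single groups fewer members passed the test. Where the fit held only the groups compared, 2 were called in WT with the control ASO, 1 in WT with the Hnrnph2 ASO and 2 in P209L with the Hnrnph2 ASO, against 13 in P209L with the control ASO. Over all genes, 270 were called in WT with the control ASO, 384 in WT with the Hnrnph2 ASO and 179 in P209L with the Hnrnph2 ASO. For P209L with the control ASO the count over all genes is not reported here, so its 13 is not read as a stronger change. The counts that follow come from the fit over all libraries. In WT mice with the control ASO, 13 were lower at 8 weeks and 0 higher, with 8.66% and 2.76% of all genes tested; the largest were Erc1 at -0.64, Rims4 at -0.45, Slc17a7 at -0.43, Syp at -0.39 and Syngr1 at -0.39. Without replicate 2 of the 8-week group, the library with the lowest presynaptic levels, 7 were lower, of 998 genes called in either direction. Without replicate 1 there were 8 of 1359, and without replicate 3 there were 24 of 2963. Leaving out replicate 1 or replicate 3 of the 3-week group gave 8 of 1040 and 7 of 1081. In P209L mice with the control ASO, 8 were lower and 1 higher (6.23% and 4.02% of all genes), led by Erc1 at -0.48, Slc17a7 at -0.42 and Rims4 at -0.41, with Rims3 higher by 0.45. Without replicate 1 of the 3-week group 4 lower and 1 higher were called, of 905 genes called in all. In WT mice with the Hnrnph2 ASO, 13 were lower and 1 higher (8.78% and 3.03%), led by Rims4 at -0.53, Erc1 at -0.47 and Doc2a at -0.41, with Rims3 higher by 0.45. Without replicate 1 of the 8-week group 6 lower and 1 higher were called, of 1316 genes called in all. In P209L mice with the Hnrnph2 ASO, 12 were lower and 2 higher (8.35% and 7.4%), led by Erc1 at -0.62, Slc17a7 at -0.55 and Erc2 at -0.49, with Rims3 higher by 0.48 and Snap25 by 0.35. The 3-week group there has 2 libraries. Leaving out either leaves a lone library, so no counts are read from such fits.

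The age difference depended on which 3-week mice stood for the younger age. The WT mice of the R206W cohort were also 3 weeks old, with library numbers of another series, and a comparison with them was added after seeing the data. Both age comparisons in WT mice share the 6 libraries at 8 weeks. Against the 3-week WT mice of the P209L cohort, 20 members were lower at 8 weeks and 2 higher, with 18.6% and 7.04% of all genes tested. Against the 3-week WT mice of the R206W cohort, 9 members were lower and 6 higher, with 22.1% and 13.7% of all genes. The median log2 fold change of the 40 was -0.20 against the P209L cohort and 0.0077 against the R206W cohort, where all genes tested had a median of -0.023.

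**Figure D3:**
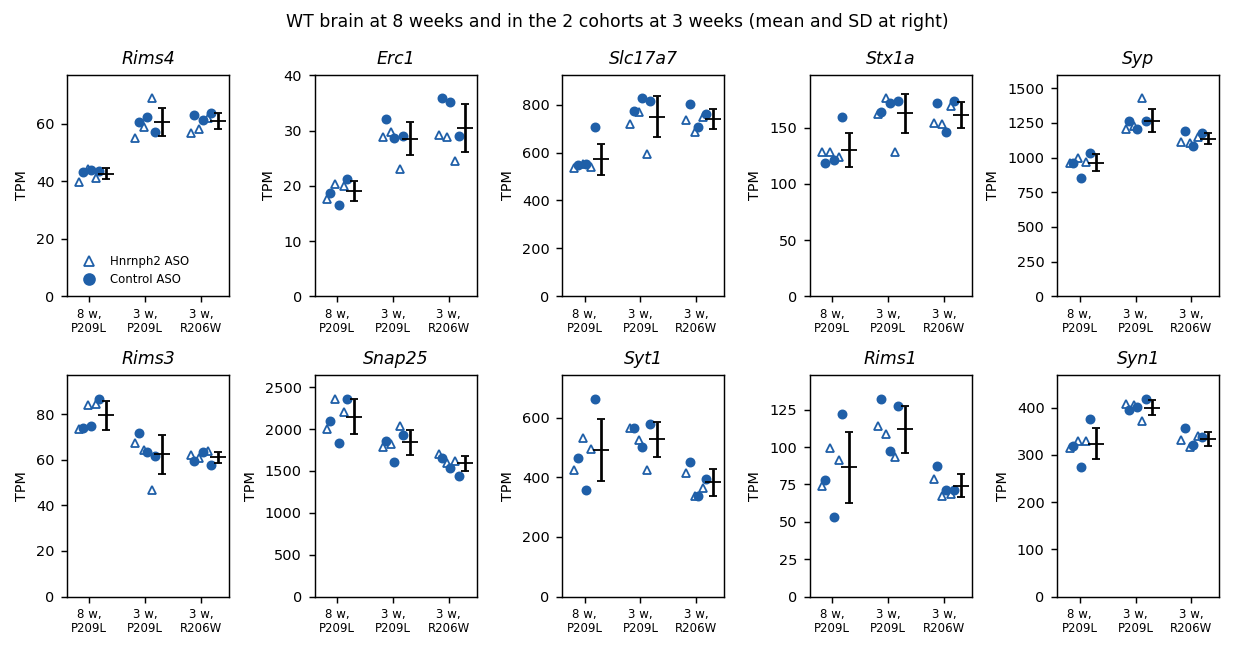
TPM of 10 members in WT libraries at 8 weeks and at 3 weeks in the P209L and the R206W cohort (triangles, Hnrnph2 ASO; filled circles, control ASO; bars, mean and SD of 6 libraries). The means of Rims4, Erc1, Slc17a7, Stx1a and Syp are lower at 8 weeks than in either 3-week cohort and those of Rims3 and Snap25 are higher, while Syt1 and Rims1 are lowest in the R206W cohort.

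Some members gave much the same value with either 3-week cohort. Rims4 averaged 42.6 ± 1.85 TPM in WT mice at 8 weeks, against 60.5 ± 4.82 TPM in the P209L cohort and 60.8 ± 2.71 TPM in the R206W cohort at 3 weeks (SD, n = 6 each). Its log2 fold changes were -0.49 and -0.50 (adjusted p = 1.13e-08 and 6.29e-09), and the 8-week libraries overlapped with neither cohort. Erc1 averaged 19.1 ± 1.80 TPM at 8 weeks, against 28.6 ± 2.97 and 30.5 ± 4.30 TPM, with changes of -0.56 and -0.64. Slc17a7 averaged 572 ± 65.7 TPM at 8 weeks, against 750 ± 85.1 and 739 ± 40.6 TPM, with changes of -0.39 and -0.37.

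Stx1a gave -0.32 against the P209L cohort and -0.31 against the R206W cohort, and Syngr3 gave -0.19 and -0.17. Rims3 gave 0.35 and 0.37, with 79.5 ± 6.20 TPM at 8 weeks against 62.5 ± 8.52 TPM in the P209L cohort and 61.2 ± 2.39 TPM in the R206W cohort. Each of these passed the test in both comparisons. Syp, Syngr1 and Rab3a were lower in both, by less against the R206W cohort: Syp gave -0.39 and -0.24, Syngr1 -0.34 and -0.17, and Rab3a -0.19 and -0.092. Snap25 averaged 2146 ± 208.7 TPM at 8 weeks, against 1840 ± 145 and 1590 ± 92.7 TPM, and gave 0.22 and 0.43.

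Other members passed the test in one of the comparisons. Syn1, the most abundant synapsin, averaged 324 ± 32.8 TPM in WT mice at 8 weeks, against 400 ± 15.9 TPM in the P209L cohort and 334 ± 14.9 TPM in the R206W cohort. It gave -0.31 (adjusted p = 6.91e-05) and -0.050 (adjusted p = 0.486). Rims1 averaged 86.4 ± 23.8 TPM, against 112 ± 15.8 and 74.1 ± 7.55 TPM, and gave -0.41 (adjusted p = 0.0351) and 0.18 (adjusted p = 0.343), so its direction turned. Syt1 averaged 491 ± 104 TPM, against 527 ± 57.8 and 383 ± 45.8 TPM, and gave -0.12 (adjusted p = 0.453) and 0.34 (adjusted p = 0.0191). Pclo, Cplx2 and Nrxn3 were likewise called higher at 8 weeks against the R206W cohort alone, by 0.35, 0.26 and 0.23. Vamp2 gave -0.25 (adjusted p = 1.12e-04) and -0.10 (adjusted p = 0.0708), and Slc17a6 gave -0.22 and 0.21, neither of which passed the test.

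**Figure D4:**
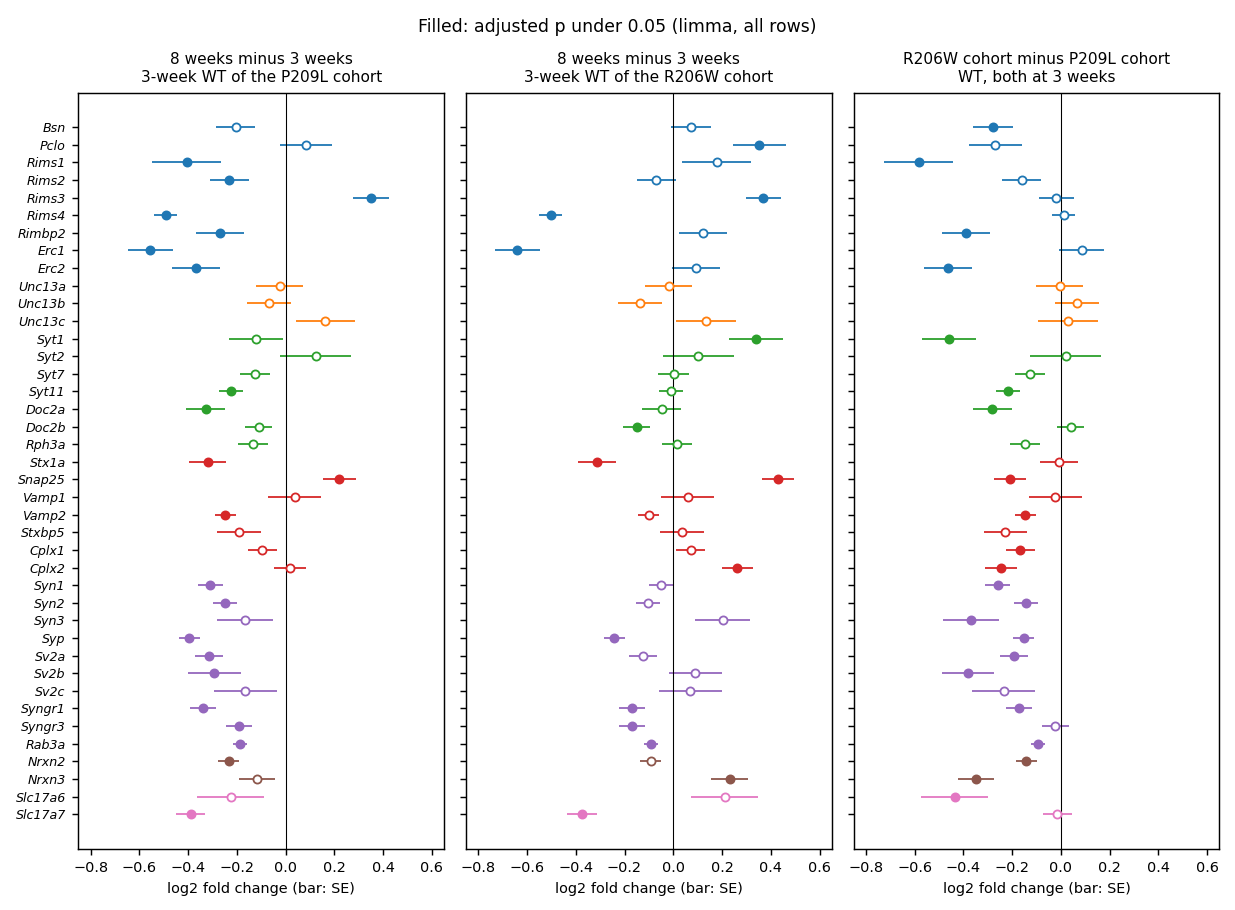
Log2 fold change (points) and SE (bars) of every member for WT libraries: 8 weeks minus 3 weeks with the P209L cohort as the younger group, the same with the R206W cohort, and R206W cohort minus P209L cohort at 3 weeks; filled points have an adjusted p under 0.05. Rims4, Erc1, Stx1a and Slc17a7 stay at the left in both age panels and near 0 in the cohort panel, while Rims1, Erc2, Syt1 and Syn1 move right in the second panel and are called lower in the third.

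The 2 cohorts were compared directly at 3 weeks in WT mice, again as an addition made after seeing the data. Of the 40 members, 22 were lower in the R206W cohort than in the P209L cohort and 0 were higher, with 16.2% and 10.9% of all genes tested, and the median log2 fold change was -0.16, against -0.0245 for all genes. Rims1 gave -0.58 (SE 0.14), Erc2 -0.46 (SE 0.099), Syt1 -0.46 (SE 0.11), Slc17a6 -0.44 (SE 0.14), Rimbp2 -0.39 (SE 0.098) and Sv2b -0.38 (SE 0.11). By contrast Rims4 gave 0.012, Stx1a -0.0073, Slc17a7 -0.015 and Rims3 -0.018 in this comparison. The 7 cerebellar granule cell markers were all called higher in the R206W cohort, with a median of 0.61. Their sum was 723.7 to 998.5 TPM in WT control ASO libraries, against 568 to 615 TPM in the P209L cohort. By contrast 6 of 8 striatal and 6 of 9 cortical excitatory markers were called lower. The ribosomal protein sum was 29170 to 32240 TPM against 26860 to 29200 TPM with the control ASO. With the Hnrnph2 ASO it was 29940 to 32470 TPM against 27150 to 31060 TPM. With the cerebellar markers as a covariate 0 members were called and 1 gene in all. With the ribosomal protein genes as a covariate 7 were lower and 1 higher, of 1988 genes called in all. Without replicate 2 of the WT control ASO group of the R206W cohort 14 were lower, of 2685 genes called in all. Library series, cohort and these marker levels cannot be told apart.

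Further synaptic and neuronal lists were also read in the average over the P209L cohorts, in which 26.6% of all genes tested were lower at 8 weeks and 15.5% higher. Of 21 SNARE partners and fusion factors 12 fell, among them the synaptotagmins Syt3 (-0.26, SE 0.031), Syt13 (-0.28, SE 0.039) and Syt12 (-0.21, SE 0.039). Of 17 active zone partners and calcium channel subunits 8 fell, among them Cacna1a, the P/Q-type channel that drives release (-0.30, SE 0.043), Cacna2d3 (-0.37) and Cacnb1 (-0.21), and Git1 rose (0.28, SE 0.043). Of 22 further vesicle proteins 14 fell, among them Atp6v0c, a subunit of the proton pump that powers transmitter loading (-0.25, SE 0.029), Rab3b (-0.32, SE 0.037) and Sncb (-0.16, SE 0.021). Of 22 endocytosis genes 12 fell, among them Sh3gl1 (-0.42, SE 0.027), Dnm1, the dynamin of synaptic vesicles (-0.24, SE 0.027), Ap2m1 and Ap2b1. Of 17 synaptic adhesion genes 12 fell; the smallest p-values were those of Nlgn2 (-0.27), Nlgn3 (-0.40), Lrrtm1 (-0.37) and Clstn3 (-0.15). Of 11 pan-neuronal genes 6 fell and 0 rose, with a median of -0.13, and of 10 myelinating oligodendrocyte genes 9 fell, with a median of -0.98; the part of cell composition in the presynaptic fall was not tested.

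The mutations gave few calls among the presynaptic transcripts. With the control ASO and averaged over the 3 cohorts, 1 of 40 members was higher in mutants than in WT and 0 were lower, with 2.55% and 1.73% of all genes tested. The median log2 fold change was 0.023, against 0.0066 over all genes. Within each cohort alone 0 members were called (0.17% of all genes in P209L mice at 8 weeks, 0.133% in P209L mice at 3 weeks and 0.133% in R206W mice), with 2, 4 and 4 members at an unadjusted p under 0.05. Mutant libraries lay above all WT libraries for 1 member and below for 0 at 8 weeks (6.33% and 3.5% of all genes), above for 4 and below for 3 in P209L mice at 3 weeks (9.79% and 11.1%), and above for 3 and below for 1 in R206W mice (6.33% and 5.39%), shares near those of all genes. Of the 40, 13 were higher and 5 lower in the mutants of all 3 cohorts by their log2 fold change. The same count over all genes was not made, so it is not read as a shift of the members.

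The member called was Doc2a (7:126846983 to 126852705). With the control ASO it had 32.4, 29.8 and 31.5 TPM in P209L mice at 8 weeks, against 25.1, 22.9 and 30.6 TPM in WT. At 3 weeks it had 38.4, 33.8 and 35.1 TPM in P209L mice, against 32.3, 29.9 and 31.3 TPM in WT, and 35.1, 30.6 and 32.4 TPM in R206W mice, against 28.6, 23.8 and 30.3 TPM in WT. Mutant and WT libraries did not overlap at 3 weeks in either cohort and overlapped at 8 weeks. The average log2 fold change was 0.23 (SE 0.066, adjusted p = 0.0446). The call was lost with the cerebellar markers as a covariate (0.089, adjusted p = 0.614) and without a filter on low values (adjusted p = 0.0906). It was also lost when most single libraries of these groups were left out, with adjusted p up to 0.114.

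Rimbp2 and Vamp1 came next and did not pass the test. Rimbp2 had 46.7, 44.4 and 39.9 TPM in P209L mice at 8 weeks and 36.3, 27.8 and 48.3 TPM in WT. At 3 weeks it had 58.9, 52.8 and 49.3 TPM in P209L mice and 46.1, 41.5 and 44.9 TPM in WT, and 48.8, 38.7 and 43.6 TPM in R206W mice and 42.4, 32.0 and 32.8 TPM in WT. The groups were apart at 3 weeks in the P209L cohort and overlapped in the others, and the average was 0.27 (SE 0.080, adjusted p = 0.0510). Vamp1 had 214, 221 and 269 TPM in P209L mice at 8 weeks and 241, 171 and 155 TPM in WT. It had 227, 271 and 218 TPM in P209L mice at 3 weeks and 224, 169 and 216 TPM in WT, and 235, 205.8 and 228 TPM in R206W mice and 175, 182 and 187 TPM in WT. Only in the R206W cohort were the groups apart, and the average was 0.29 (SE 0.089, adjusted p = 0.0638).

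Of the remaining members followed in every comparison, Slc17a6 had an average log2 fold change of 0.16, Syt2 0.12, Vamp2 0.032, Syt1 0.025, Slc17a7 0.012, Cplx1 -0.0013 and Cplx2 -0.090 in mutants against WT. Markers of other cells differed in the same comparison: 4 of 7 cerebellar granule cell markers (median -0.32), 4 of 10 myelinating oligodendrocyte markers (median -0.22) and 2 of 7 oligodendrocyte precursor markers were called lower in mutants. The thalamus, midbrain and hindbrain list had 0 of 10 called and a median of 0.25. With the cerebellar covariate Rimbp2 gave 0.19 (adjusted p = 0.399) and Vamp1 0.38 (adjusted p = 0.0696); the part of the other lists was not tested. The difference between the mutation's effects at 8 and 3 weeks in the P209L cohorts, and between R206W and P209L at 3 weeks, was called for 0 members (0% of all genes tested), with 0 members at an unadjusted p under 0.05 in either.

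The 5 lists of further synaptic genes, the adhesion list including postsynaptic partners, were read against the 2.55% of all genes tested that were higher in mutants and the 1.73% that were lower. Higher in mutants were the vesicle protein Svop (0.45, SE 0.048, adjusted p = 4.94e-07) and Slc32a1, which loads GABA and glycine into vesicles (0.25, SE 0.043, adjusted p = 7.02e-04), of 22 vesicle genes. The calcium channel subunits Cacnb1 (0.17, SE 0.035, adjusted p = 0.00411) and Cacna2d1 (0.32, SE 0.068, adjusted p = 0.00551) were higher, of 17 active zone partners, and Syt12 was lower (-0.15, SE 0.043, adjusted p = 0.0451), of 21 SNARE partners. None of 22 endocytosis and 17 adhesion genes was called, with 3 and 6 at an unadjusted p under 0.05, as had 3055 of all 16556 genes.

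**Figure D5:**
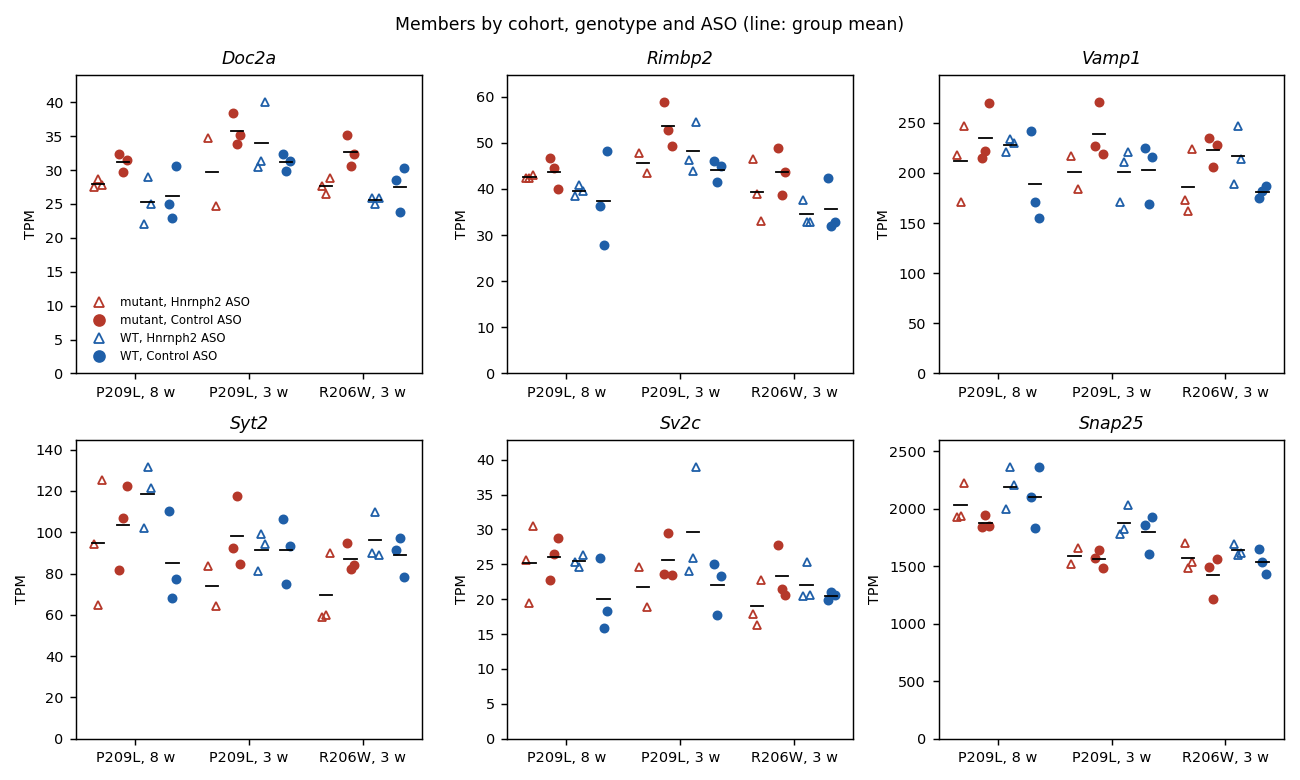
TPM of 6 members by cohort in mutants with the Hnrnph2 ASO, mutants with the control ASO, WT with the Hnrnph2 ASO and WT with the control ASO (lines, group means; 3 libraries a group, 2 for P209L with the Hnrnph2 ASO at 3 weeks). Doc2a, Rimbp2 and Vamp1 average higher in mutants than in WT with the control ASO in every cohort, and the groups of Syt2 and Sv2c mostly overlap.

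In WT mice the Hnrnph2 ASO moved no member past the threshold. The average over the 3 cohorts called 0 of 40 members (0.187% of all genes tested), with 3 at an unadjusted p under 0.05, and the median was 0.016, against 0.0193 over all genes. The smallest p belonged to Syngr3 at -0.14 (SE 0.044, adjusted p = 0.232), Slc17a7 at -0.14 (SE 0.049, adjusted p = 0.306) and Sv2c at 0.28 (SE 0.11, adjusted p = 0.360). Vamp1 had 0.18, Vamp2 0.034, Syt1 -0.066, Syt2 0.20, Cplx1 0.077, Cplx2 -0.057 and Slc17a6 0.15. In the single cohorts 0 were called as well (0.0182%, 0.0121% and 0.0121% of all genes at 8 weeks, at 3 weeks in the P209L cohort and in the R206W cohort), with 0, 2 and 1 at an unadjusted p under 0.05. The difference between the ASO's effects in WT at 8 and 3 weeks in the P209L cohorts was called for 0 members (0% of all genes), with 0 at an unadjusted p under 0.05.

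In mutants the ASO likewise called 0 of 40 members on average (2.5% of all genes tested), with 6 at an unadjusted p under 0.05 and a median of -0.029, against 0.0023 over all genes. Rims4 came nearest. With the Hnrnph2 ASO it had 42.9, 42.1 and 48.6 TPM in P209L mice at 8 weeks, against 49.4, 49.6 and 46.7 TPM with the control ASO, and 63.8 and 55.7 TPM in P209L mice at 3 weeks, against 62.6, 64.7 and 66.9 TPM. In R206W mice it had 58.4, 56.4 and 59.7 TPM with the Hnrnph2 ASO, against 68.1, 64.8 and 65.9 TPM with the control ASO, and only there did the groups not overlap. The average was -0.14 (SE 0.040, adjusted p = 0.0539). It passed without replicate 3 of the treated P209L mice at 8 weeks (adjusted p = 0.0200), in a fit that called 2 members and 433 genes in all.

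Doc2a, higher in control ASO mutants than in WT, had 27.5, 28.7 and 27.8 TPM in P209L mice with the Hnrnph2 ASO at 8 weeks, 34.7 and 24.7 TPM in those at 3 weeks and 27.6, 26.5 and 28.8 TPM in R206W mice. Against the control ASO mutants its average was -0.22 (SE 0.069, adjusted p = 0.0921). It passed with the cerebellar covariate (adjusted p = 0.0252), as the 1 member called in a fit that called 447 genes in all. Doc2a was named as higher in mutants from the same control ASO libraries, so these results are not independent. Unc13c followed with -0.29 (SE 0.10, adjusted p = 0.149). Vamp1 had -0.23, Syt2 -0.30, Slc17a6 -0.18, Vamp2 0.068, Cplx2 0.062, Cplx1 0.034, Slc17a7 0.017 and Syt1 -0.015. In the single cohorts 0 members were called (0.0908%, 0.0969% and 0.097% of all genes at 8 weeks, in P209L mice at 3 weeks and in R206W mice), with 0, 4 and 6 at an unadjusted p under 0.05. In the 3-week cohorts no stem of the names in the titles occurred with both ASOs, so litter, if the stems stand for it, and ASO cannot be told apart there.

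The ASO's effect in mutants minus its effect in WT was tested directly. It called 0 of 40 members on average (0.302% of all genes tested), with 6 at an unadjusted p under 0.05, and the smallest p belonged to Vamp1 at -0.40 (SE 0.13, adjusted p = 0.330), Sv2c at -0.47 (SE 0.15, adjusted p = 0.345) and Syt2 at -0.51 (SE 0.17, adjusted p = 0.402). Syt2 averaged 94.8 ± 30.2 TPM with the Hnrnph2 ASO and 104 ± 20.5 TPM with the control ASO in P209L mice at 8 weeks, while WT of that cohort had 118 ± 14.9 and 85.2 ± 22.3 TPM (SD, n = 3 each). In R206W mice it had 69.7 ± 17.7 TPM with the Hnrnph2 ASO and 87.3 ± 6.79 TPM with the control ASO, while WT of that cohort had 96.3 ± 11.8 and 89.1 ± 9.68 TPM. The thalamus, midbrain and hindbrain list, regions where Vamp1 and Syt2 are known to be abundant, had a median of -0.13 in the same difference with 0 of 10 called. Some of its hindbrain genes, picked after their values were seen, gave -1.03 for Slc6a5 (adjusted p = 0.593), -0.94 for Hoxb5, -0.84 for Hoxa5 and -0.77 for Hoxb3. With a median of -0.13 over the list, these picked genes do not stand for it. Their part in the values of Syt2 and Vamp1 was not tested. Outside the 40, Svop (-0.34, SE 0.070, adjusted p = 0.0207) and Slc32a1 (-0.27, SE 0.062, adjusted p = 0.0493) were called in this difference, and with the ASO in mutants they fell by 0.27 and 0.21 on the log2 scale. Both were named as higher in mutants from the same control ASO libraries, so these results are not independent.

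Mutants with the Hnrnph2 ASO were finally set against WT with the control ASO. On average 0 of 40 members were called (4.83% of all genes tested), with 8 at an unadjusted p under 0.05 and a median of 0.0088, against 0.0080 over all genes. Rims3 had the smallest p. It averaged 73.0 ± 9.64 TPM in treated P209L mice at 8 weeks, against 78.5 ± 7.32 TPM in WT (SD, n = 3 each), and 49.0 and 54.6 TPM in the 2 treated P209L libraries at 3 weeks, against 65.6 ± 5.32 TPM in WT. In treated R206W mice it averaged 55.1 ± 1.77 TPM, against 60.2 ± 2.91 TPM in WT. The average log2 fold change of Rims3 was -0.19 (SE 0.062, adjusted p = 0.0800). With the replicate number as a block it was -0.21 and passed the test (adjusted p = 0.0203). Rims3 was the 1 member of 40 called in that fit, which called 1135 genes in all. Without the block, Rims3 was followed by Vamp2 at 0.10 (SE 0.037, adjusted p = 0.120) and Unc13c at -0.26 (SE 0.10, adjusted p = 0.155). Doc2a, the member called in control ASO mutants, had an average of 0.0079 here, Rimbp2 0.13 and Vamp1 0.060. The WT control ASO libraries are those that the control ASO mutants were set against. No member was called in any single cohort (0.00605%, 0.0121% and 0.0182% of all genes), with 0, 4 and 4 at an unadjusted p under 0.05. In the R206W cohort the replicate number as a block was an alternative added after seeing the data. There Erc1 was called lower at -0.38 (adjusted p = 0.0367, against 0.231 without the block). Erc1 was the 1 member of 40 called, in a fit that called 236 genes in all, against 3 genes without the block. It had 25.7, 26.2 and 23.9 TPM in treated R206W mice, against 35.9, 35.2 and 29.0 TPM in WT with the control ASO.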

How the data were processed

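Total RNA from the brains was sequenced with a stranded kit, per the labels' protocols. The deposited table holds TPM values per gene, which the authors made from the reads; RSEM, STAR 2.7.1a, Trim Galore and GATK 4.0.4.0 are listed in the submitters' processing notes beside the build mm10, with no order or role. Depth cannot be recovered from TPM. Gene positions are from the RefSeq table of the GRCm38.p6 assembly. The 40 members and all lists were chosen with earlier results of these data known.

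Rows averaging at least 1 TPM were put on a log2(TPM + 1) scale and tested by limma (version 3.58.1, R 4.3.3; mean-variance trend, two-sided, Benjamini-Hochberg adjustment over all rows tested, threshold 0.05). Fold changes are on the log2(TPM + 1) scale and understate changes of low genes. Comparisons within a cohort used its libraries alone, giving 16489 to 16518 rows; averages, age and cohort comparisons used 12 group means over 35 libraries, giving 16556 rows. WT libraries at 3 weeks were assigned to a cohort by the library numbers in their titles. Named are all called members, up to 10 in each direction for averages and 5 within a group, the 3 smallest p-values where fewer than 3 were called, 8 members followed throughout (Vamp1, Vamp2, Syt1, Syt2, Cplx1, Cplx2, Slc17a6 and Slc17a7) and up to 4 called genes per further list, of which some are not reported here. Remaining called members are given for completeness. Same-numbered libraries deviated together in all 3 pairs (correlation over 0.1) for treated mutants against WT at 8 weeks (0.123 to 0.24) and in the R206W cohort (0.104 to 0.204), and in no other comparison with 3 pairs. The fitting code was tested on simulated data. Alternatives were a pseudocount of 0.1 TPM, no filter, rescaled libraries, a replicate block, marker covariates, only the groups compared, and leaving out each library.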

Additional observations from a re-analysis of the deposited data

How the results depend on the processing

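For the age average, 20 to 28 members were called in every alternative tried, against 25. The counts over all genes in these fits are not reported here. With the ribosomal protein genes as a covariate the median of the members was -0.042, against -0.16, and Rims1 reversed to 0.044. For the mutation average, against 1 member called, 0 were called without a filter and with the cerebellar covariate, 3 with rescaled libraries, 5 with the ribosomal covariate, 2 with only the groups compared and 2 with the replicate block. Over all genes these fits called 591, 316, 888, 1134, 689 and 925, in the same order. The labels do not say that a replicate number marks a shared litter or day, although some same-numbered libraries share a stem in their names. The block also called 1 member in treated mutants on average, 1 in treated R206W mice and 1 for the mutation in the R206W cohort, each against 0. Over all genes these fits called 1135, 236 and 210, in the same order. In treated P209L mice at 8 weeks the block called 0 members. For treated mutants the ribosomal covariate called 3, of 1126 genes called in all, against 0. For the ASO in mutants the cerebellar and ribosomal covariates called 1 each, of 447 and 494 genes called in all, against 0. With only the groups compared, age called 2 in WT with the control ASO against 13, 1 in WT with the Hnrnph2 ASO against 14 and 2 in P209L with the Hnrnph2 ASO against 14. Over all genes these fits called 270, 384 and 179. Against the R206W cohort such a fit called 9 in place of 15, of 5088 genes called in all. The cerebellar covariate also gave 9 there, of 2100 genes called in all, and Doc2b reversed to 0.015. Between cohorts at 3 weeks the cerebellar covariate called 0 members and the ribosomal one 8, against 22, with 1 and 1988 genes called in all. With the cerebellar covariate Doc2a turned to 0.0012. The cause was not tested. Leaving out single libraries gave 25 to 28 for the age average, 7 to 24 in WT with the control ASO, 5 to 8 in P209L with the control ASO, 7 to 14 in WT with the Hnrnph2 ASO, 0 to 4 for the mutation average, 0 to 2 for the ASO in mutants, 0 to 2 for treated mutants, 12 to 15 against the R206W cohort and 14 to 23 between cohorts. The counts over all genes also moved in these fits and are not all reported here. The interaction uses all groups, so it has no fit on compared groups alone. TPM hold no read totals, so the depth behind the low members is unknown.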
